A study of Mus musculus with 6 samples.

Results

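The genes described here are antagonists and feedback inhibitors of Wnt and BMP signalling, measured in mouse skin. They are Wif1, Sfrp1, Sfrp2, Dkk2, Dkk3, Apcdd1, Axin2, Sostdc1, Nbl1 and Grem1, 10 of the 18939 genes in the deposited table, taken by symbol. All 10 were found, and each measured at least 1 FPKM in all 6 libraries, so none entered the fit through one group alone. FPKM is a read count scaled to gene length and to the mapped fragments of the library, so levels of different genes can be set side by side. The genes were chosen by their FPKM difference between the CKO and FLOX groups described next, with that difference already known. Their levels and fold changes in that comparison are therefore a description, without a test.

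The 6 libraries came from mouse skin in what the title calls an MC903-OVA model, where MC903 stands for the vitamin D analogue calcipotriol, which inflames mouse skin on topical use, and OVA is ovalbumin, a model antigen. The CKO group holds 3 libraries (replicates 1, 2 and 5) labelled as lacking VAMP7, a vesicle SNARE protein, in basophils, and the FLOX group holds 3 libraries (replicates 2, 3 and 5) with a wildtype genotype label. The labels do not describe the treatment of either group or name a Cre driver, strain, age, sex, body site, dose or time. They also do not say that each library is a separate mouse, so the spread between libraries may be technical.

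Wnt proteins bind Frizzled receptors together with the co-receptors LRP5 and LRP6, which stabilises beta-catenin and switches on target genes with TCF and LEF factors. BMPs bind paired receptor kinases that phosphorylate Smad proteins. In skin, Wnt signals start and renew hair follicles and BMP signals hold follicle stem cells at rest, and secreted antagonists set where each signal reaches. WIF1 and the SFRP proteins bind Wnt ligands, the Dickkopf protein DKK2 binds LRP co-receptors, and APCDD1 is a membrane glycoprotein that blocks Wnt signalling at the cell surface. NBL1 and GREM1 are secreted cystine-knot proteins that bind BMPs, and SOSTDC1 acts on both BMPs and LRP co-receptors. AXIN2 differs from the rest, since it is neither secreted nor in the membrane. It is an intracellular scaffold that promotes beta-catenin breakdown, and its gene is a widely used readout of Wnt signalling.

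Promoters of 6 of the 10 genes were found in a RefSeq table (build GRCm38.p6), each 300 bases long, from 250 before to 50 after the gene's start. Of these, 4 are printed in the gene's own direction because they cover the range of behaviour met below: Axin2 as the feedback gene of the Wnt pathway, Wif1 as the most abundant member, Nbl1 as a BMP antagonist gene whose groups stood apart, and Grem1 as one whose groups overlapped. Capitals mark matches to the GC box GGGCGG and to the palindrome GGCGCC, a core of BMP-responsive elements, on either strand.
Axin2, chr11:108920099-108920398, plus strand: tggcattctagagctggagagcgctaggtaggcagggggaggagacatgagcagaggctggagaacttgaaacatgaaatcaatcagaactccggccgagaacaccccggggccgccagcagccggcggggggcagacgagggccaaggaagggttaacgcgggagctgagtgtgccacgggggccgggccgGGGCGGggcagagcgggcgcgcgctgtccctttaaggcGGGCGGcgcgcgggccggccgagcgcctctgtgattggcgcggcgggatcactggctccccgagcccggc
Wif1, chr10:121033754-121034053, plus strand: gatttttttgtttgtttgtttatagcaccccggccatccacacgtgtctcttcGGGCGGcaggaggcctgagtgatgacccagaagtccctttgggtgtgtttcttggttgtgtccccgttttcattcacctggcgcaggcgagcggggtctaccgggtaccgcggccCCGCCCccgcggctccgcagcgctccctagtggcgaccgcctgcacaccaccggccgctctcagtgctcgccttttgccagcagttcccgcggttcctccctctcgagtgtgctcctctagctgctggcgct
Nbl1, chr4:139092921-139093220, minus strand: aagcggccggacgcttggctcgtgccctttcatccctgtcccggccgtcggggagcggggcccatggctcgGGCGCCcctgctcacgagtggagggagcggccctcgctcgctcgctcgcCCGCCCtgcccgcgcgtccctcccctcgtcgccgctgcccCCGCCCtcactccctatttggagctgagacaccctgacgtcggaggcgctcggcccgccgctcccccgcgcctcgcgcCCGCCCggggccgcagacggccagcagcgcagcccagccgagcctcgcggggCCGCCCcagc
Grem1, chr2:113758599-113758898, minus strand: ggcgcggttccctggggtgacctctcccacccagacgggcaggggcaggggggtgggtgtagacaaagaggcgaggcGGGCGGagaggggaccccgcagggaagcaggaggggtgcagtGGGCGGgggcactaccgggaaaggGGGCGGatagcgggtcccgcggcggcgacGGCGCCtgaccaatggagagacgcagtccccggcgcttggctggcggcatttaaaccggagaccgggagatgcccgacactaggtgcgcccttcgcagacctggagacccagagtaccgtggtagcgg
The TCF and LEF core was searched on both strands with 4 spellings, of which the first was CTTTGAA, the next was CTTTGAT, another was CTTTGTA, and the remaining spelling was CTTTGTT. It matched 0 of the 6 member promoters and 16.9% of all 32851 promoters in the table. The palindrome was found in 2 of the 6, at position -179 from the start in Nbl1 and at -78 in Grem1, and in 11.9% of all promoters. The GC box was found in 5 of the 6 and in 35.7% of all promoters, with first bases at -58 and -20 in Axin2 and at -197 and -82 in Wif1. All 6 member promoters had a GC content above the table's median of 52.67%, from 57.67% in Dkk2 to 78.33% in Nbl1. Nbl1, with separate groups, and Grem1, with overlapping groups, thus hold the same palindrome. No match says only that these letters are not in this window.

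Of the 10 genes, 9 had a higher mean in CKO than in FLOX skin and 1, Dkk2, had a lower one. In 7 genes every CKO library lay above every FLOX library, a pattern that 15.5% of the 12994 tested genes showed (27.0% were apart in either direction). Sostdc1 had the highest ratio of group means, 2.05, Apcdd1 and Nbl1 had ratios of 1.68 and 1.62, and the ratios of the other genes lay between 0.913 and 1.54. The median log2 fold change (CKO minus FLOX, on log2(FPKM + 1), a scale that understates changes of low genes) was 0.44 for the 10 genes and 0.03 for all tested genes, of which 56.1% were positive. In bulk skin RNA, fewer cells of a type and less RNA per cell cannot be told apart.

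**Figure D1:**
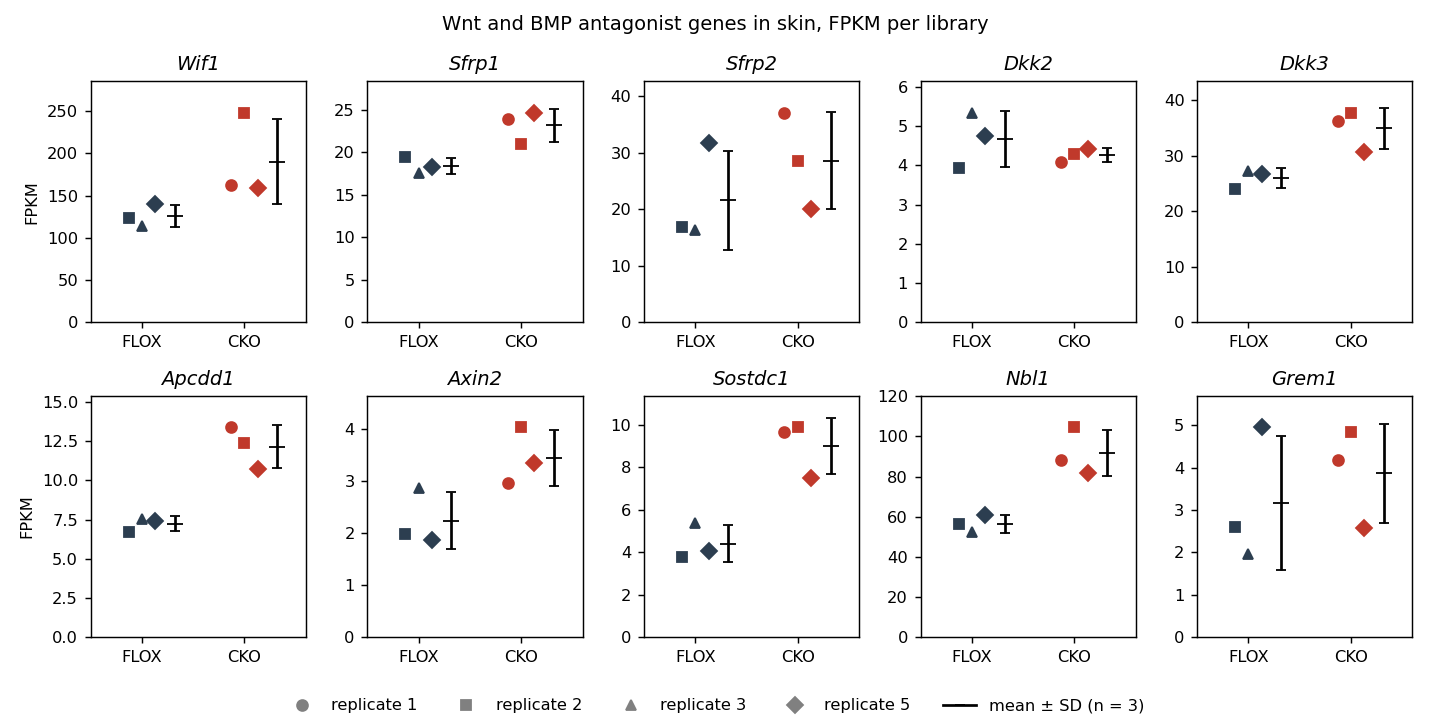
FPKM of each antagonist gene (vertical axis, starting at 0 and scaled per gene) in the 3 FLOX and the 3 CKO libraries; marker shapes give the replicate number, and the bar is the mean ± SD of 3 libraries. The CKO points lie above all FLOX points in 7 genes and overlap them in Sfrp2, Dkk2 and Grem1.

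Among the genes whose proteins bind Wnt ligands, Wif1 (gene ID 24117), which encodes a Wnt inhibitory factor, was the most abundant of all 10. It measured 163, 248.15 and 158.81 FPKM in CKO replicates 1, 2 and 5, and 123.54, 114.16 and 139.56 FPKM in FLOX replicates 2, 3 and 5. The groups did not overlap, and CKO replicate 2 stood well above the other CKO libraries. The means were 190 ± 50.4 FPKM in CKO and 126 ± 12.8 FPKM in FLOX (SD, n = 3 each), a log2 fold change of 0.57 (SE 0.18), which was 0.36 without CKO replicate 2. Wif1 alone made up 42.6% to 52.2% of the summed FPKM of the 10 genes in each library.

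Sfrp1 (gene ID 20377) and Sfrp2 (gene ID 20319) encode secreted relatives of the Frizzled ectodomain and differed in how steady they were. Sfrp1 measured 23.9, 20.97 and 24.66 FPKM in CKO replicates 1, 2 and 5 and 19.38, 17.57 and 18.24 FPKM in FLOX replicates 2, 3 and 5. Its groups did not overlap but lay close, with 1.59 FPKM between the lowest CKO and the highest FLOX value, and its log2 fold change was 0.32 (SE 0.09). It was the one gene among those with separate groups for which CKO replicate 2 was the lowest CKO library. Sfrp2 measured 37.08, 28.6 and 20.09 FPKM in CKO replicates 1, 2 and 5 and 16.81, 16.3 and 31.69 FPKM in FLOX replicates 2, 3 and 5. Its groups overlapped, because FLOX replicate 5 was second only to CKO replicate 1 while CKO replicate 5 was near the low FLOX libraries. The means were 28.6 ± 8.50 and 21.6 ± 8.74 FPKM (log2 fold change 0.41, SE 0.29), and that fold change ran from 0.21 without CKO replicate 1 to 0.71 without FLOX replicate 5. With the replicate number as a block it was 0.05. Exons of Sfrp2 overlap the antisense gene Gm26771 in the GENCODE annotation, and counting by strand is not stated, so reads of the pair cannot be told apart.

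The Dickkopf genes differed in whether their groups overlapped. Dkk3 (gene ID 50781), a divergent family member whose link to Wnt signalling is less settled, measured 36.33, 37.83 and 30.75 FPKM in CKO replicates 1, 2 and 5. Its FLOX values were 23.97, 27.3 and 26.74 FPKM in replicates 2, 3 and 5. The groups did not overlap, with means of 35.0 ± 3.73 and 26.0 ± 1.78 FPKM and a log2 fold change of 0.41 (SE 0.10). Dkk2 (gene ID 56811), which can inhibit or activate Wnt signalling depending on the receptors present, measured 4.09, 4.29 and 4.43 FPKM in CKO replicates 1, 2 and 5. Its FLOX values were 3.94, 5.35 and 4.74 FPKM in replicates 2, 3 and 5. All CKO values lay within the FLOX range, and the log2 fold change was -0.10 (SE 0.11). It was -0.20 without FLOX replicate 2, -0.02 without FLOX replicate 3 and 0.01 with the replicate number as a block, so no direction is given. The CKO libraries were more alike than the FLOX libraries for this gene, with coefficients of variation (SD over mean) of 4.00% and 15.1%. The medians over all tested genes were 10.01% in CKO and 8.935% in FLOX.

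At the cell surface and inside the cell, Apcdd1 (gene ID 494504) and Axin2 (gene ID 12006) both had separate groups. Apcdd1 measured 13.38, 12.37 and 10.71 FPKM in CKO replicates 1, 2 and 5 and 6.68, 7.56 and 7.44 FPKM in FLOX replicates 2, 3 and 5. The lowest CKO value exceeded the highest FLOX value by 3.15 FPKM, and the means were 12.15 ± 1.35 and 7.23 ± 0.477 FPKM (log2 fold change 0.67, SE 0.10). Axin2 was the least abundant of the 10, at 2.96, 4.03 and 3.34 FPKM in CKO replicates 1, 2 and 5 and 1.98, 2.87 and 1.87 FPKM in FLOX replicates 2, 3 and 5. Its groups were barely apart, with 0.09 FPKM between CKO replicate 1 and FLOX replicate 3. The means were 3.44 ± 0.542 and 2.24 ± 0.548 FPKM and the log2 fold change 0.46 (SE 0.15). Exons of Axin2 overlap the antisense gene Gm11670, with the same limit as for Sfrp2.

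The genes of BMP-binding proteins spanned the strongest and some of the weakest differences. Sostdc1 (gene ID 66042) measured 9.65, 9.88 and 7.51 FPKM in CKO replicates 1, 2 and 5 and 3.77, 5.4 and 4.04 FPKM in FLOX replicates 2, 3 and 5. The lowest CKO value was 2.11 FPKM above the highest FLOX value, and the means were 9.01 ± 1.31 and 4.403 ± 0.874 FPKM. Its log2 fold change of 0.89 (SE 0.15) exceeded that of 98.8% of tested genes. Nbl1 (gene ID 17965), known for the protein DAN, measured 88.37, 104.47 and 82 FPKM in CKO replicates 1, 2 and 5 and 56.19, 52.23 and 60.94 FPKM in FLOX replicates 2, 3 and 5. The gap between the groups was 21.06 FPKM, wide against the SDs of 11.6 and 4.36 FPKM, and the log2 fold change was 0.68 (SE 0.11). Grem1 (gene ID 23892), which encodes gremlin, measured 4.18, 4.84 and 2.57 FPKM in CKO replicates 1, 2 and 5 and 2.59, 1.96 and 4.95 FPKM in FLOX replicates 2, 3 and 5. Its highest value of all came from a FLOX library, and its log2 fold change of 0.26 (SE 0.28) was 0.04 without FLOX replicate 3 and 0.55 without FLOX replicate 5. With the replicate number as a block it was -0.02, so no direction is given, as for Dkk2.

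**Figure D2:**
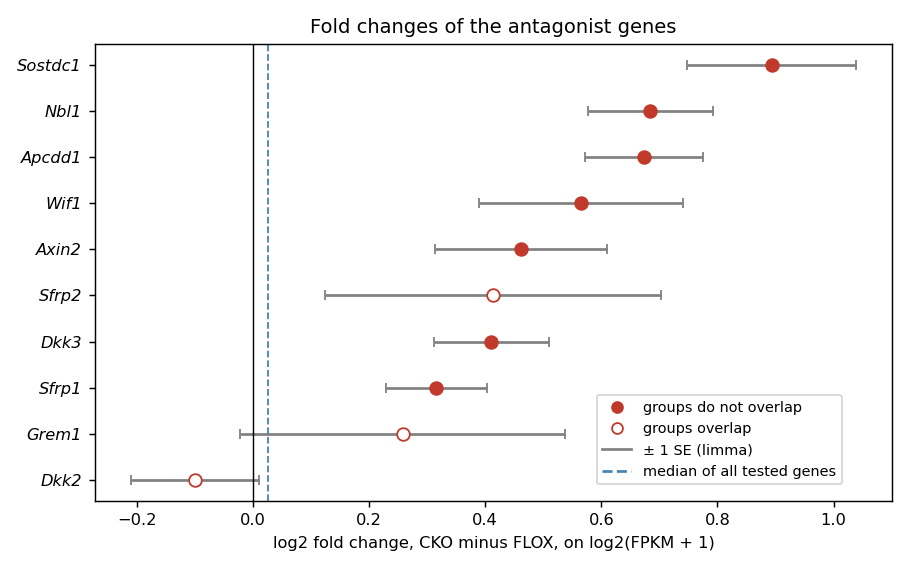
Log2 fold change (CKO minus FLOX on log2(FPKM + 1), horizontal axis) of each antagonist gene with its limma standard error; filled points mark genes whose groups do not overlap, open points the others, and the dashed line is the median of all tested genes. The values run from -0.10 for Dkk2 to 0.89 for Sostdc1.

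In the limma fit over all 12994 tested genes, 3 of the 10 passed an adjusted p of 0.05, Sostdc1, Apcdd1 and Nbl1, each at a Benjamini-Hochberg adjusted p of 0.047, where 0.354% of genes were called higher in CKO and 0.600% lower (0.954% in all). As these values chose the genes, nothing is read from that count. It also rested on single libraries. Without CKO replicate 1, CKO replicate 2, FLOX replicate 2, FLOX replicate 3 or FLOX replicate 5 the fit called 0 of the 10. Over all genes those fits called 69 higher and 65 lower without CKO replicate 1, and 1 and 6 without CKO replicate 2. They called 0 in either direction without FLOX replicate 2 or FLOX replicate 3, and 2 and 1 without FLOX replicate 5. The limma adjusted p-values of the 3 genes in these fits ran from 0.057 to 0.162. In those fits 6 to 8 of the 10 were under an unadjusted p of 0.05. So were 1165 genes higher and 867 lower in CKO, of all 12880 tested without CKO replicate 2. Without FLOX replicate 5 they were 1446 and 983 of 12938. Nothing is read from these counts of members either. Without CKO replicate 5 the fit called 4, adding Dkk3, and over all genes it called 225 higher and 192 lower. A higher mean in CKO was held by 9 of the 10 genes whichever library was left out. The genes were chosen by this difference and the fits share libraries, so nothing is read from that. With all libraries, 56.1% of tested genes were positive.

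Ordered by their mean level in FLOX skin, the genes ran Wif1, Nbl1, Dkk3, Sfrp2, Sfrp1, Apcdd1, Dkk2, Sostdc1, Grem1 and Axin2. The ranges over libraries did not overlap between Wif1 and Nbl1, Nbl1 and Dkk3, Sfrp1 and Apcdd1, or Apcdd1 and Dkk2. The other neighbours did overlap, namely Dkk3 with Sfrp2, Sfrp2 with Sfrp1, and each of Dkk2, Sostdc1 and Grem1 with the gene after it, so these pairs did not differ beyond their spread. In CKO skin the order was the same except that Sostdc1 stood before Dkk2, with no overlap between them (lowest Sostdc1 value 7.51 FPKM, highest Dkk2 value 4.43 FPKM). Wif1 lay above 95.9% and Nbl1 above 91.3% of tested genes in mean level, whereas Axin2 lay above 15.2%.

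The genes did not share one profile across libraries. CKO replicate 2 was the highest CKO library for 6 of the 10 and CKO replicate 5 the lowest for 7. Sfrp2 and Grem1 had another pattern, with CKO replicate 1, CKO replicate 2 and FLOX replicate 5 as their 3 highest libraries, as 6.75% of tested genes had. The sum of 12 fibroblast markers, including the decorin gene Dcn and the collagen gene Col3a1, had the same 3 libraries on top. So did the sums of adipocyte, endothelial and cartilage markers. The pattern was not limited to cell type markers. Sums of the Wnt receptor, BMP ligand and other BMP antagonist lists, described below, also had these 3 libraries on top. The fibroblast sum measured 4965 and 4950 FPKM in CKO replicates 1 and 2 and 4407 FPKM in FLOX replicate 5, against 3287 FPKM in CKO replicate 5 and 3410 and 3203 FPKM in FLOX replicates 2 and 3. The adipocyte sum was 1209, 669.9 and 630.2 FPKM in CKO replicates 1 and 2 and FLOX replicate 5 and at most 482.5 FPKM in the others. The endothelial sum was 110.8, 130.8 and 101.6 FPKM there and at most 99.56 FPKM elsewhere, and the cartilage sum 121.1, 193.9 and 151.3 FPKM there and at most 115.2 FPKM elsewhere. The part of these cell types in the levels of Sfrp2 and Grem1 was not tested.

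The genes closest in profile to the 3 members with the largest fold changes were found by the root mean square distance between centred log2(FPKM + 1) values over the 6 libraries, among 9441 candidates. Nbl1 lay close to Tspan8, a tetraspanin gene (distance 0.05), and Ccn3, a matricellular gene (0.07). Apcdd1 lay closest to Acsl1, which encodes an acyl-CoA synthetase (0.06), Cdkn1c, a cell cycle inhibitor gene (0.06), and the transcription factor gene Osr1 (0.07). The nearest genes to Sostdc1 were more distant, namely the sulfotransferase gene Sult1a1 (0.12), Ndrg2 (0.15) and the retinaldehyde dehydrogenase gene Aldh1a1 (0.15). Among the members themselves, Nbl1 lay at 0.13 from both Wif1 and Apcdd1, and Sostdc1 at 0.16 from Apcdd1 but 0.52 from Dkk2 and 0.51 from Grem1.

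Markers of several skin cell types moved with the groups, and their part in the levels above was not tested. The labelled tissue was checked with keratin genes, and Krt14, of basal keratinocytes, had means of 3946 ± 180 FPKM (CKO) and 3583 ± 230 FPKM (FLOX). Sums of the 15 skeletal muscle markers in the table ran from 767.6 to 2062 FPKM in CKO and from 270.7 to 602.6 FPKM in FLOX, with 14 of 14 tested positive and 1, Myh2, called higher by limma. Sums of 10 hair follicle epithelium markers ran from 188.2 to 222.1 and from 152.7 to 162.7 FPKM, with 7 of 8 tested positive. The remaining tested marker had groups apart in the other direction. Krt15 (means 74.2 FPKM in CKO and 43.5 FPKM in FLOX) and Cd34 (73.4 and 60.6 FPKM) made up most of these sums. Krt15 also stands in the basal keratinocyte list. Sums of 7 differentiated keratinocyte markers ran from 5349 to 8023 and from 3772 to 4506 FPKM, with 7 of 7 positive. Basal keratinocyte sums (4970 to 5490 and 4204 to 4935 FPKM, 7 of 7 positive) and smooth muscle sums (186 to 275.1 and 139.2 to 175.4 FPKM, 6 of 6 positive) were likewise apart. Sebaceous, endothelial and cartilage sums overlapped. Adipocyte sums overlapped (482.5 to 1209 and 322.2 to 630.2 FPKM, 10 of 10 positive). Dermal papilla sums went the other way (163.4 to 195.3 and 200.2 to 263.1 FPKM, 2 of 4 tested positive), as did leukocyte sums (1105 to 1579 and 1840 to 2102 FPKM, 0 of 8 positive, Cd53 called lower) and basophil sums (62.31 to 104.5 and 187.7 to 289.1 FPKM, 0 of 7 positive, Mcpt8 and Prss34 called lower). Enpp2 (means 117.1 FPKM in CKO and 159.2 FPKM in FLOX) made up most of the dermal papilla sums. Of 16 hair shaft markers, Krt31, Krt33a, Krt33b and Krt81 were listed at 0 in all libraries, and only 2 could be tested. Sums of the 16 overlapped (27.21 to 74.73 and 58.62 to 108.3 FPKM). Vamp7, the targeted gene, had means of 19.5 ± 0.352 FPKM (CKO) and 20.9 ± 0.565 FPKM (FLOX), with a log2 fold change of -0.09 (limma adjusted p = 0.475). Skin RNA cannot check a deletion limited to basophils.

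**Figure D3:**
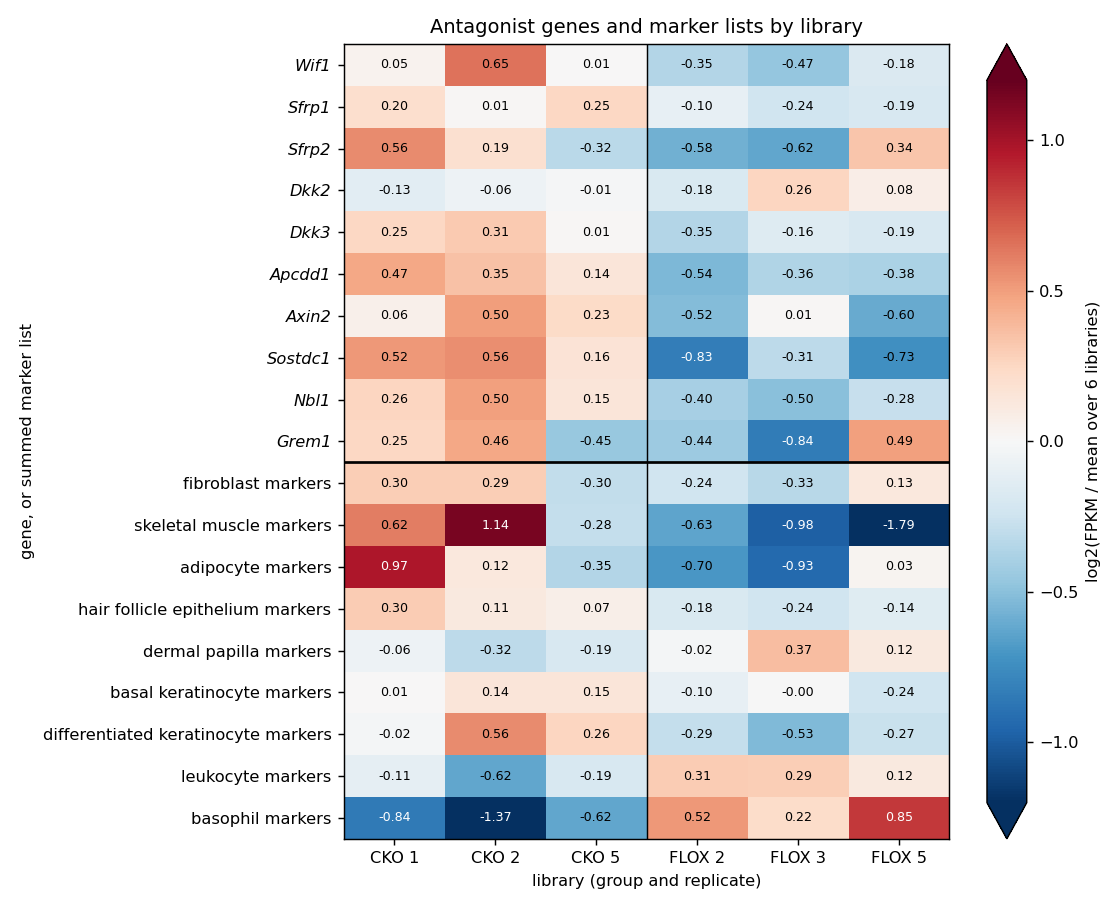
Each row is an antagonist gene or the summed FPKM of a marker list, and each column a library; colour and number give log2 of the value over its mean in the 6 libraries, with colours saturating beyond ±1.2. Wif1, Sfrp1, Dkk3, Apcdd1, Sostdc1 and Nbl1 are positive in all CKO and negative in all FLOX libraries. So are the hair follicle epithelium and basal keratinocyte markers. Sfrp2, Grem1, the fibroblast markers and the adipocyte markers are positive in CKO replicates 1 and 2 and in FLOX replicate 5.

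The rest of both pathways was described through lists of ligands, receptors, intracellular components, targets and other antagonists, written from general knowledge. Of 129 further genes found in the table, 97 passed the filter of 1 FPKM in 3 libraries. The fit over all genes called 0 of the 97 in either direction, against 0.954% of all 12994 tested genes. That share is small for a list of this size, so nothing is read from the 0. At an unadjusted p under 0.05 it had 33 higher and 0 lower in CKO, against a background of 12.6% of tested genes higher and 8.94% lower. Positive fold changes were held by 81 of the 97, with a median of 0.21, and 37 had all CKO libraries above all FLOX libraries and 0 the reverse, against 15.5% and 11.4% of tested genes.

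Other antagonists were the nearest relatives of the genes above. Of 7 tested genes listed as other Wnt antagonists 6 had a positive fold change (median 0.30). The fit called 0 of them, against 0.954% of all tested genes. The list included Sfrp5 at 4.26 ± 0.826 FPKM in CKO and 2.66 ± 0.226 FPKM in FLOX (log2 fold change 0.51, limma adjusted p = 0.0823). Notum, a secreted enzyme that strips the lipid from Wnt proteins, measured 2.43, 3.79 and 1.88 FPKM in CKO replicates 1, 2 and 5 and 1.27, 1.31 and 1.22 FPKM in FLOX replicates 2, 3 and 5 (0.67, adjusted p = 0.086). Those 2 genes passed without CKO replicate 5 (log2 fold changes 0.64 and 0.84, adjusted p = 0.0426 and 0.047). That fit called 225 genes higher and 192 lower over all genes. Leaving out any other library gave limma adjusted p-values from 0.14 to 0.22 for both. Dkkl1 measured 17.65 ± 4.07 and 10.8 ± 1.64 FPKM (0.65, adjusted p = 0.0899) and Frzb, another secreted Frizzled-related gene, 42.3 ± 9.02 and 35.2 ± 5.28 FPKM (0.25, adjusted p = 0.43, and 0.09 without CKO replicate 2). Dkk4 was listed at 0 in all libraries, and Dkk1 did not exceed 0.08 FPKM. Of 9 tested BMP antagonists 8 had a positive fold change (median 0.22, 0 called, against the same 0.954%). Fstl3, which encodes a follistatin-like protein, measured 4.14 ± 0.198 and 2.90 ± 0.354 FPKM (0.40, adjusted p = 0.0753), Twsg1, the twisted gastrulation gene, 43.7 ± 6.94 and 35.6 ± 1.21 FPKM (0.28, adjusted p = 0.207), and Fstl1 159 ± 27.9 and 137 ± 31.5 FPKM (0.22, adjusted p = 0.548).

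Ligand and receptor genes set which cells send and receive these signals. Of 8 tested Wnt ligand genes 7 were positive with a median of 0.25. Wnt4, the most abundant, measured 18.8 ± 3.72 and 15.8 ± 0.506 FPKM (0.22, limma adjusted p = 0.367, and 0.08 without CKO replicate 5), Wnt10a 8.84 ± 0.962 and 7.08 ± 0.256 FPKM (0.28, adjusted p = 0.147) and Wnt3 1.82 ± 0.393 and 1.18 ± 0.181 FPKM (0.37, adjusted p = 0.161). Of 14 tested receptor genes 12 were positive with a median of 0.22. Fzd2 measured 4.1, 3.56 and 3.07 FPKM in CKO replicates 1, 2 and 5 and 1.68, 2.26 and 1.78 FPKM in FLOX replicates 2, 3 and 5, so its groups did not overlap, and it missed the threshold (0.65, adjusted p = 0.0515). It passed without CKO replicate 5 (0.74, adjusted p = 0.0426), and leaving out any other library gave limma adjusted p-values from 0.0755 to 0.162. Fzd6 measured 11.25 ± 0.889 and 8.26 ± 0.315 FPKM (0.40, adjusted p = 0.0625). The most abundant receptors, Ryk (0.11, adjusted p = 0.518) and Fzd9 (0.58, adjusted p = 0.173), overlapped between the groups. For Fzd9 only FLOX replicate 5, at 21.09 FPKM, reached the CKO values. Of the R-spondin axis, which amplifies Wnt signals, 5 of 6 tested were positive, led by the R-spondin receptor genes Lgr6 (0.44, adjusted p = 0.0568) and Lgr4 (0.34, adjusted p = 0.079), while Rspo1 was at 0.00 (adjusted p = 0.998). Porcn and Wls, which lipidate and carry Wnt proteins, had fold changes of 0.43 (adjusted p = 0.0675) and 0.14 (adjusted p = 0.375). Of 7 tested BMP ligand genes 6 were positive (median 0.21), among them Gdf5 (0.38, adjusted p = 0.199), Bmp7 (0.21, adjusted p = 0.271) and Bmp5 (0.22, adjusted p = 0.467, and 0.08 without CKO replicate 2). All 12 tested BMP receptor and Smad genes were positive (median 0.17), with the co-receptor gene Rgma at 0.55 (adjusted p = 0.0663), Bmpr1a at 0.32 (adjusted p = 0.0728) and Eng at 0.03 (adjusted p = 0.92).

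Inside the cell, 15 of 17 tested Wnt pathway genes were positive, with a median of 0.16. Ctnnb1, the beta-catenin gene, had means of 175 ± 8.69 FPKM (CKO) and 167 ± 4.68 FPKM (FLOX) (0.06, limma adjusted p = 0.696), and Csnk1a1, a kinase of the destruction complex, had means of 128 ± 8.98 and 118 ± 3.43 FPKM (0.11, adjusted p = 0.473). Bcl9l, a beta-catenin co-activator gene, had a fold change of 0.50 (adjusted p = 0.123) and Ctnnbip1, an inhibitor of the beta-catenin and TCF complex, 0.28 (adjusted p = 0.139). Of 10 tested genes known as Wnt targets 8 were positive, with a median of 0.30. Tnfrsf19 measured 7.17, 8.79 and 9.63 FPKM in CKO replicates 1, 2 and 5 and 5.85, 5.53 and 4.31 FPKM in FLOX replicates 2, 3 and 5 (0.61, adjusted p = 0.0649). The groups did not overlap, as for Axin2. The 2 most abundant targets had negative values with overlapping groups, Cd44 at -0.22 (adjusted p = 0.619) and Myc at -0.06 (adjusted p = 0.895). Of 10 tested BMP targets 5 were positive and 5 negative, with a median of 0.00, and 2 had all CKO libraries above all FLOX libraries. Id1 measured 90.5 ± 20.9 and 97.85 ± 9.86 FPKM (-0.13, adjusted p = 0.71) and Id2 104 ± 15.5 and 111 ± 5.94 FPKM (-0.11, adjusted p = 0.664), both encoding inhibitors of helix-loop-helix factors. Their relative Id4 measured 5.27, 7.49 and 5.62 FPKM in CKO replicates 1, 2 and 5 and 3.65, 3.42 and 3.05 FPKM in FLOX replicates 2, 3 and 5. Its groups were apart, and it missed the threshold (0.69, adjusted p = 0.0515), as did the transcription factor gene Atoh8 (0.27, adjusted p = 0.29).

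**Figure D4:**
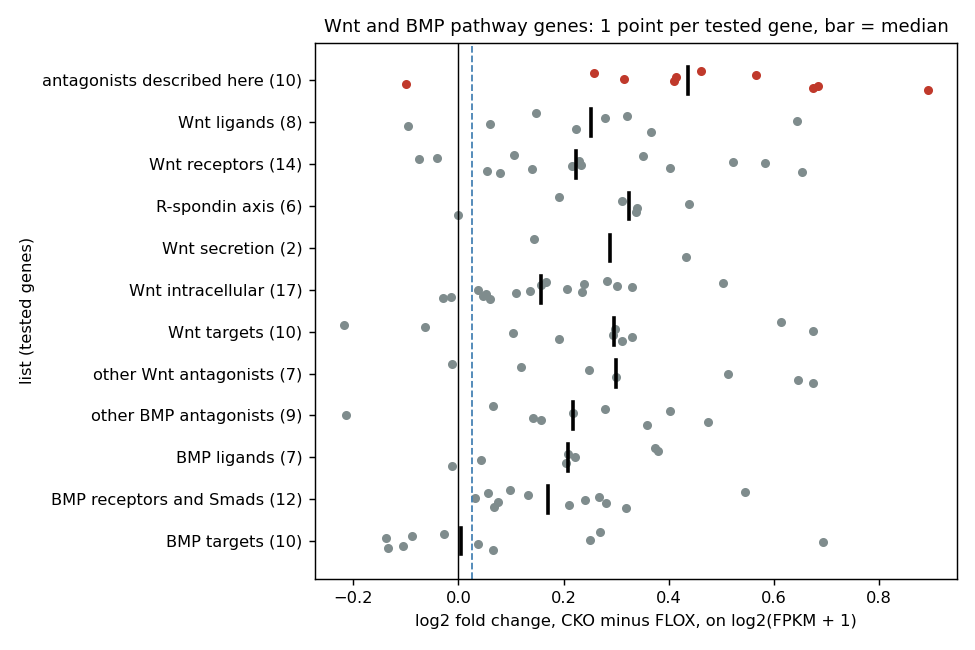
Log2 fold change (CKO minus FLOX on log2(FPKM + 1), horizontal axis) of each tested gene of the Wnt and BMP lists, 1 point per gene, with the number of tested genes beside each list; black bars are list medians and the dashed line the median of all tested genes. List medians run from 0.00 for BMP targets to 0.32 for the R-spondin axis, and that of the antagonists described here is 0.44; some genes stand in more than 1 list.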

How the data were processed

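Skin RNA was selected with oligo(dT) beads and sequenced from a single end, per the labels' protocols. HISAT is the aligner named in the submitters' processing notes, and the sources used here name no counter, genome build, annotation or use of strand. The deposited values are the authors' FPKM per gene, per the file headers, with 2 decimals and library sums from 556412 to 594987. Read depth is unknown, so no counting interval is given.

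A limma 3.58.1 model (R 4.3.3, two-sided, mean-variance trend, Benjamini-Hochberg adjustment, threshold 0.05) compared log2(FPKM + 1) between groups. It covered the 12994 genes that reached 1 FPKM in 3 or more libraries and left out 5945. It was checked on simulated data whose planted changes were larger than that of any member, so the check does not bear on changes of their size. Of the 97 pathway genes covered, 1 was under 1 FPKM in every library of one group.

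The members and lists were chosen with earlier results of these data known, so no p over a list is given. Named genes were all members, Vamp7 and, per pathway list, genes past the threshold, 2 by smallest p and 2 by mean level. Per marker list the rule allowed 2 by mean level, and only some of these are named above. The 3 members with the largest fold changes got 3 profile neighbours each, from genes reaching 5 FPKM in a group mean; 1 neighbour and 1 marker list are not reported here. Called marker genes beyond that rule, Dkk1, antisense partners and genes at 0 were named after their values were seen. Alternatives were pseudocounts of 0.1 and 5, other filters, scalings and variance models, a replicate block, and leaving out each library.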

Additional observations from a re-analysis of the deposited data

How the results depend on the processing

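With the replicate number as a block the fit called 117 genes higher (46 in the fit described above), 102 lower (78), 0 of the 10 antagonists (3) and 1 further pathway gene (0), the ligand gene Wnt7b; the log2 fold change was then 0.0093 for Dkk2 and -0.0175 for Grem1. Only numbers 2 and 5 occur in both groups. Deviations from the group means, correlated across genes, gave 0.13 and -0.11 for these pairs. Pairs of unlike number ran from -0.39 to 0.23. So few pairs cannot tell whether libraries of the same number share more than that number, and the labels do not say. The counts of genes higher and lower were 0 and 1 without a filter (2074 and 1308 at an unadjusted p under 0.05), 0 and 0 after quantile normalization (1286 and 1346 unadjusted), 15 and 17 without the trend, and 4 and 6 with robust fitting; none of the 10 antagonists was called in these 4 fits. The filter at 5 FPKM gave 71 higher, and Dkk2, Grem1 and Axin2 could not be tested under it. Leaving out 1 library gave 0 to 225 higher, 0 to 192 lower, 0 to 4 antagonists and 0 to 3 further pathway genes, the highest without CKO replicate 5; limma called 0 in either direction without FLOX replicate 2 (1119 and 878 unadjusted) and without FLOX replicate 3 (1436 and 963). The number of antagonists with a positive log2 fold change was 9 under each alternative that tested all 10, and 7 of 7 at the 5 FPKM filter. With the block these were not the same 9, since Dkk2 was then positive and Grem1 negative. Of 147 antagonist values under alternatives, 141 kept their sign and moved by less than 1 SD of replicates and 2, given above, changed sign. The other 4 were Sostdc1 at 0.58 (0.89 above), Apcdd1 at 0.49 (0.67) and Axin2 at 0.22 (0.46) with pseudocount 5, and Axin2 at 0.68 with the block. Leaving out 1 library moved the value of 16 of 36 further named pathway genes by over 1.5 times. Of 531 values of these genes, 11 changed sign, all of genes that were not called: Cd44 (-0.3512 to 0.0099 on leaving out 1 library), Eng (-0.0986 to 0.1642, and -0.0087 with median-ratio scaling), Id1 (-0.2572 to 0.0692, and 0.0349 with the block), Id2 (-0.1794 to 0.0225), Myc (-0.2687 to 0.099) and Rspo1 (-0.1073 to 0.1073, and 0.0008 with pseudocount 5). The cause was not tested. With unknown depth, values near 1 FPKM, such as those of Wnt3, Notum and Gdf5, carry an unknown counting error.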
